A study of Zea mays with 7 samples.

Results

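The genes described here are 5 genes of brassinosteroid synthesis and perception, of 110451 genes in the count table, chosen by their identifiers. They are *NA1* (*GRMZM2G449033*), *NA2* (*GRMZM2G057000*) and *BRD1* (*GRMZM2G103773*) for synthesis, and the BRI1-type receptor genes *GRMZM2G048294* and *GRMZM2G449830*. The last is annotated as *BRI1B* in the study, and the former is called *BRI1* below. Transcripts were sequenced from 3–4 mm ear primordia of field-grown maize in the B73 background, with 4 pools of *Bif3* mutants and 3 pools of wild-type siblings. *Bif3* carries a tandem copy of *ZmWUS1*, a homeodomain gene that promotes stem cells, behind a new proximal promoter. There is a single allele, which was introgressed into B73. By the study's methods the mutants were homozygous (*Bif3/Bif3*) and each pool held 3 ears; the sample labels give no zygosity and say that the mutant ears were collected by their appearance.

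Brassinosteroids are steroid hormones that promote cell expansion and division. They are made from plant sterols by reductases and cytochrome P450 oxidases, and they bind BRI1, a leucine-rich repeat receptor kinase at the cell surface that acts with co-receptor kinases of the SERK family. The signal passes through kinases and phosphatases to transcription factors of the BZR family, which in Arabidopsis also lower the transcription of synthesis genes. In maize, loss of *NA1*, *NA2* or *BRD1* gives dwarf plants, and *na1* and *na2* mutants also form pistils in the tassel.

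Total counts per pool ranged from 41720131 to 56057512, and 40650 genes with at least 2 counts over the 7 pools were tested. Values are given as CPM (a gene's share of the counts of its pool after TMM scaling, in the usual counts-per-million unit), with scaling factors from 0.970 to 1.04. *ZmWUS1* (*GRMZM2G047448*) had 0.551, 0.324 and 0.320 CPM in the wild-type pools and 4.31, 5.13, 3.82 and 12.8 CPM in the *Bif3/Bif3* pools, in the order of their replicate numbers, which is used throughout. All mutant pools were thus above all wild-type pools for the duplicated gene, and replicate 4 was the highest. The 7 meristem marker genes summed to 695 to 832 CPM in wild-type and 750 to 913 CPM in *Bif3/Bif3*, most of it from *kn1* (*GRMZM2G017087*), and 1 of them, *ra3* (*GRMZM2G014729*), was past the limits set out below as lower in *Bif3/Bif3* (163 against 85.8 CPM, log2 fold change -0.93, edgeR adjusted p = 0.0487). The others were not past the limits. Their log2 fold changes were 0.23 for *kn1*, 0.38 for *ub2*, 0.29 for *ub3*, 0.06 for *ZYB15*, 1.76 for *bd1* and -0.50 for *ra1*. The 10 mature leaf markers summed to 28.2 to 31.9 CPM in wild-type and 25.7 to 47.1 CPM in *Bif3/Bif3*, most of it from *Ppdk1* (*GRMZM2G306345*) and *me3* (*GRMZM2G085019*). Of these, *me3* was past the limits as lower in *Bif3/Bif3* (log2 fold change -0.67, edgeR adjusted p = 0.0174), and *PEPC1* (*GRMZM2G083841*), the phosphoenolpyruvate carboxylase of C4 leaves, had no count in any pool. *Ppdk1* went the other way without passing the limits, at 17.2 CPM in wild-type against 28.9 CPM in *Bif3/Bif3* (log2 fold change 0.75, edgeR adjusted p = 0.111). In pooled organs, fewer cells of a type and less RNA per cell cannot be told apart.

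*NA1* and *BRI1B* were higher in every *Bif3/Bif3* pool than in every wild-type pool, with fold changes of 1.496 and 1.43. *NA2*, *BRD1* and *BRI1* overlapped between the genotypes. The limits set for differential expression were a p under 0.05, an adjusted p under 0.1 and more than 1.5-fold. These are the study's limits. None of the 5 genes met all 3 limits in edgeR's quasi-likelihood test or in DESeq2, and 1 did in limma-voom. DESeq2 placed 1756 genes past the limits as higher and 314 as lower of 40650 fitted, and limma-voom 2017 and 349 of 26255. By edgeR, 3.39% of the tested genes met the limits as higher and 0.598% as lower in *Bif3/Bif3*. Without the limit on fold change, *NA1* and *BRI1B* passed the test (2 of 5 higher, 0 lower, and these 2 were also the ones with an unadjusted p under 0.05), where the percentages over all genes were 4.39% higher and 1.65% lower. Pools that did not overlap were found for 2 of the 5 genes, both higher in *Bif3/Bif3*, while 8.38% of all tested genes had every mutant pool above and 7.69% every mutant pool below wild-type. With only 5 genes, chosen by name, the counts are a description. All 5 log2 fold changes were positive, with a median of 0.20, against a median of -0.01 over all tested genes.

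**Figure D1:**
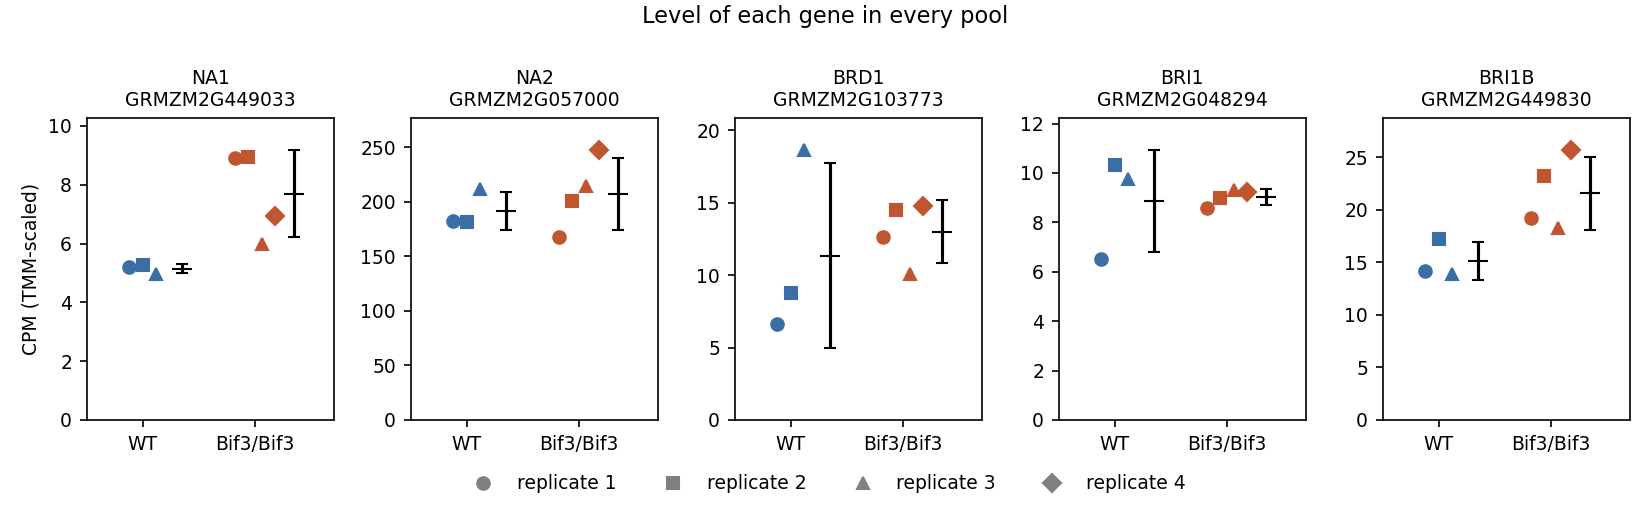
Level of each gene in CPM (vertical axis, starting at 0) in the 3 wild-type pools (blue) and the 4 *Bif3/Bif3* pools (orange), with the replicate number given by the symbol and the mean ± SD of each genotype in black. The pools are apart for *NA1* and *BRI1B* only, and wild-type replicate 3 of *BRD1* (18.6 CPM) lies above all mutant pools.

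*NA1* encodes a steroid reductase, the maize counterpart of Arabidopsis DET2, which acts early in brassinosteroid synthesis. It had 5.20, 5.26 and 4.97 CPM in the wild-type pools, from 217, 292 and 248 counts. Its mutant levels were 8.91, 8.93, 5.98 and 6.95 CPM, from 393, 421, 268 and 345 counts in *Bif3/Bif3*. The wild-type pools lay close together, whereas the mutant pools fell into a high pair, replicates 1 and 2, and a lower pair, replicates 3 and 4. The lowest mutant pool was still 1.14 times the highest wild-type pool. *Bif3/Bif3* averaged 7.69 ± 1.47 CPM (SD, n = 4) against 5.14 ± 0.154 CPM (SD, n = 3) for wild-type. On the log2 scale this was a difference of 0.58 (SE 0.16, 95% interval 0.23 to 0.94), and edgeR's quasi-likelihood test, adjusted by Benjamini-Hochberg over all tested genes, gave an adjusted p of 0.0823. Adjusted p-values below come from this test unless another is named. The fold change of 1.496 fell just short of the limit of 1.5. When the pools were permuted exactly, the difference of the means had a two-sided p = 0.0571, and no p under 0.0286 can be reached with 3 and 4 pools.

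The call for *NA1* was lost when most of the single pools were left out. The adjusted p was above 0.1 in 6 of the 7 edgeR fits that left out a pool, reaching 0.238 without *Bif3/Bif3* replicate 2, while the log2 fold change stayed between 0.50 and 0.68. Calls were lost over all genes in the same 6 fits. Without the fold limit, 787 to 1456 genes were called as higher there, against 1785 with all pools. Without *Bif3/Bif3* replicate 3, its lowest mutant pool, *NA1* met all 3 limits (edgeR adjusted p = 0.0272). In that fit 1817 genes met them as higher, against 1380 with all pools.

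The wild-type pools scattered little for *NA1*. The coefficient of variation over the wild-type pools was 3.00%, below the 6.30% that counting error alone gives on average, and 95.8% of the 4793 genes within a factor of 2 of its level varied more. Over the *Bif3/Bif3* pools it was 19.2%, and 19.5% of the 5632 genes of similar level varied more. The SD of *NA1* was thus larger in the mutant, although with 3 and 4 pools this difference in spread was not tested.

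*NA2* encodes a sterol side-chain reductase, the counterpart of Arabidopsis DWF1, which makes the sterol precursor of the hormone and serves general sterol synthesis as well. It had 182, 181 and 212 CPM in wild-type and 167, 201, 214 and 247 CPM in *Bif3/Bif3*. The lowest and the highest of the 7 pools were both mutant pools, replicates 1 and 4, so that the genotypes overlapped completely. *Bif3/Bif3* averaged 207 ± 32.9 CPM (SD, n = 4) against 192 ± 17.6 CPM (SD, n = 3) for wild-type. The log2 fold change was 0.11 (SE 0.12, 95% interval -0.15 to 0.37, edgeR adjusted p = 0.656), and the exact two-sided permutation test gave p = 0.514. The interval reaches from 0.903-fold to 1.30-fold, so a change of 1.5-fold in either direction lies outside it.

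With 7382 to 12263 counts per pool, counting error on *NA2* was 1.02% in *Bif3/Bif3*. The coefficient of variation was 15.9% over the mutant pools, and 8.42% of the 2185 genes of similar level varied more. The median of those genes was 7.33%.

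*BRD1* encodes a cytochrome P450 that carries out the late oxidation giving castasterone, and the gene table lists it under the synonym *Dwarf2*. It had 6.64, 8.75 and 18.6 CPM in wild-type, from 277, 486 and 929 counts, and 12.6, 14.5, 10.1 and 14.8 CPM in *Bif3/Bif3*. Wild-type replicate 3 was higher than all mutant pools and wild-type replicates 1 and 2 were lower than all of them. The highest wild-type pool was 2.80 times the lowest, whereas in *Bif3/Bif3* this ratio was 1.47. The coefficient of variation of 56.4% over the wild-type pools was exceeded by 1.08% of the 6034 genes of similar level, whose median was 9.93%.

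The comparison of *BRD1* between the genotypes rested on wild-type replicate 3. With all pools *Bif3/Bif3* averaged 13.0 ± 2.17 CPM (SD, n = 4) against 11.3 ± 6.39 CPM (SD, n = 3) for wild-type, a log2 fold change of 0.20 (SE 0.28, 95% interval -0.42 to 0.81). The edgeR adjusted p was 0.767, and the exact two-sided permutation test gave p = 0.686. When wild-type replicate 3 was omitted, the log2 fold change was 0.75 and *BRD1* met all 3 limits (edgeR adjusted p = 0.0878). When wild-type replicate 1 was left out instead, it was -0.07. Among the wild-type pools, replicate 3 was also the highest for *NA2*, at 212 CPM against 182 and 181 CPM, while it was the lowest for *NA1* and *BRI1B* and between the others for *BRI1*. Over all genes, 687 were past the limits as higher without this pool, against 1380 with all pools.

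Of the receptor genes, *BRI1B* lay apart between the genotypes and *BRI1* did not. *BRI1B* had 14.2, 17.2 and 13.9 CPM in wild-type and 19.2, 23.2, 18.3 and 25.6 CPM in *Bif3/Bif3*, from 591 to 1273 counts per pool. The lowest mutant pool, replicate 3, was 1.06 times the highest wild-type pool, replicate 2. *Bif3/Bif3* averaged 21.6 ± 3.45 CPM (SD, n = 4) against 15.1 ± 1.82 CPM (SD, n = 3) for wild-type. The log2 fold change was 0.51 (SE 0.13, 95% interval 0.22 to 0.81, edgeR adjusted p = 0.0612), which is 1.43-fold. The exact two-sided permutation test gave p = 0.0571. *BRI1B* met all 3 limits when wild-type replicate 2 was left out (log2 fold change 0.62, edgeR adjusted p = 0.0525), and also without *Bif3/Bif3* replicate 1 (log2 fold change 0.60, edgeR adjusted p = 0.0750). In these fits 1199 of 39761 and 1018 of 39902 genes met them as higher, against 1380 of 40650 with all pools. The adjusted p of *BRI1B* was above 0.1 without wild-type replicates 1 or 3 and without *Bif3/Bif3* replicates 2 or 4, and the highest was 0.214.

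*BRI1* had 6.52, 10.3 and 9.75 CPM in wild-type, from 272, 573 and 487 counts, and 8.60, 8.996, 9.33 and 9.24 CPM in *Bif3/Bif3*, from 379, 424, 418 and 459 counts. All 4 mutant pools lay within the range of the wild-type pools, with wild-type replicate 1 far below the others. *Bif3/Bif3* averaged 9.04 ± 0.328 CPM (SD, n = 4) against 8.86 ± 2.05 CPM (SD, n = 3) for wild-type, with a log2 fold change of 0.03 (SE 0.15, 95% interval -0.31 to 0.36). The edgeR adjusted p was 0.948, and the exact two-sided permutation test gave p = 0.914. The interval of *BRI1* reaches from 0.808-fold to 1.29-fold and leaves out a 1.5-fold change in either direction. The sign turned without wild-type replicate 1, where the log2 fold change was -0.15. The coefficient of variation of *BRI1* over the mutant pools was 3.63%, below the 4.88% of counting error, and 95.3% of the 5973 genes of similar level varied more.

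Scaling between pools cancels in the ratio of the receptor genes within a pool. For each count of *BRI1* there were 2.17, 1.66 and 1.43 counts of *BRI1B* in the wild-type pools and 2.23, 2.58, 1.957 and 2.77 in the *Bif3/Bif3* pools. *Bif3/Bif3* replicate 3 fell below wild-type replicate 1, so the ratios overlapped. The mean log2 ratio was 1.24 ± 0.223 (SD, n = 4) in *Bif3/Bif3* and 0.79 ± 0.307 (SD, n = 3) in wild-type. This difference, 0.45, was not past 0.05 in the exact two-sided permutation test (p = 0.114, where 0.0286 is the smallest possible), so that the fold changes of the receptor genes were not shown to differ. Both are BRI1-type genes, and how reads that match both were counted is not given in the sources used here, so the split of counts between them is uncertain where their sequences are alike. The ratio compares counts and not transcript levels, since it is not corrected for length.

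**Figure D2:**
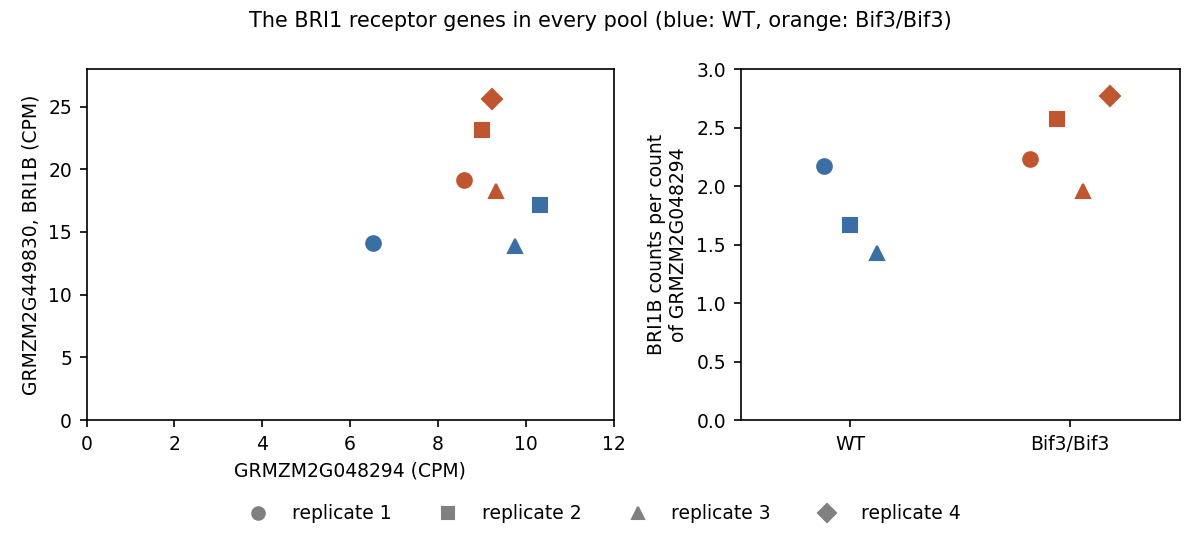
Left, CPM of *BRI1B* (vertical) against CPM of *BRI1* (horizontal) in each pool, and right, the counts of *BRI1B* per count of *BRI1*; blue is wild-type, orange is *Bif3/Bif3*, and the symbol gives the replicate. The mutant pools differ from wild-type in height (18.3 to 25.6 CPM against 13.9 to 17.2 CPM) while their *BRI1* values lie within the wild-type range, and the ratios overlap.

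The mutant pools were not ordered alike by the 5 genes. *Bif3/Bif3* replicate 4, the pool with the most *ZmWUS1*, was the highest mutant pool for *NA2*, *BRD1* and *BRI1B*, but the third of 4 for *NA1* and the second for *BRI1*. *Bif3/Bif3* replicate 3 was the lowest mutant pool for *NA1*, *BRD1* and *BRI1B*, and the highest for *BRI1*. Wild-type replicate 1 was the lowest of all pools for *BRD1* and *BRI1*.

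The RefSeq gene table names few other genes of the pathway, and 7 further identifiers matched by symbol. Of the 5 that could be tested, 0 met the 3 limits and 0 passed without the limit on fold change in edgeR's test, 0 met the limits in DESeq2 or limma-voom, and *serk1* alone had an unadjusted p under 0.05. Over all genes tested in edgeR, 3.39% met the limits as higher and 0.598% as lower, and 4.39% and 1.65% passed without the fold limit. With only 5 genes, counts of 0 are near these shares. The median log2 fold change of the 5 was -0.02. *Dwf4* (*GRMZM2G065635*), named for the P450 of the rate-limiting step of synthesis in Arabidopsis, was barely detected, with 16, 6 and 17 counts in wild-type against 14, 10, 6 and 9 in *Bif3/Bif3*. Its log2 fold change was -0.37, with a wide 95% interval from -1.47 to 0.73. At these counts the interval of *Dwf4* still holds 1.5-fold in either direction.

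The co-receptor genes were measured with far more counts. *serk1* (*GRMZM5G870959*) had 24.7, 17.8 and 22.02 CPM in wild-type and 23.2, 28.3, 30.0 and 41.2 CPM in *Bif3/Bif3*, with *Bif3/Bif3* replicate 1 below wild-type replicate 1. Its log2 fold change of 0.51 (SE 0.17, edgeR adjusted p = 0.137) did not pass, but without *Bif3/Bif3* replicate 1 it was 0.66 with an edgeR adjusted p of 0.0744, past all 3 limits. In that fit 1018 of 39902 genes met them as higher, against 1380 of 40650 with all pools. *serk2* (*GRMZM2G115420*) had a log2 fold change of -0.07 (95% interval -0.25 to 0.11) at 106 CPM in *Bif3/Bif3* and 111 CPM in wild-type. *serk3* (*GRMZM2G150024*) had one of -0.02 (95% interval -0.21 to 0.16). For *serk2* and *serk3* the intervals leave out a 1.5-fold change in either direction.

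Of the breakdown genes in this list, the symbol *CYP734A7*, for a P450 that inactivates the hormone, pairs with 2 identifiers, *GRMZM2G047684* and *GRMZM5G852663*. Both were at 0 counts in every pool, which allows up to 0.0535 to 0.0719 CPM in a pool (3 counts, for counting error only). The symbol *bas1* (*GRMZM2G077673*) is also used for a gene outside the pathway, so its role here is uncertain, and its log2 fold change was -0.01.

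**Figure D3:**
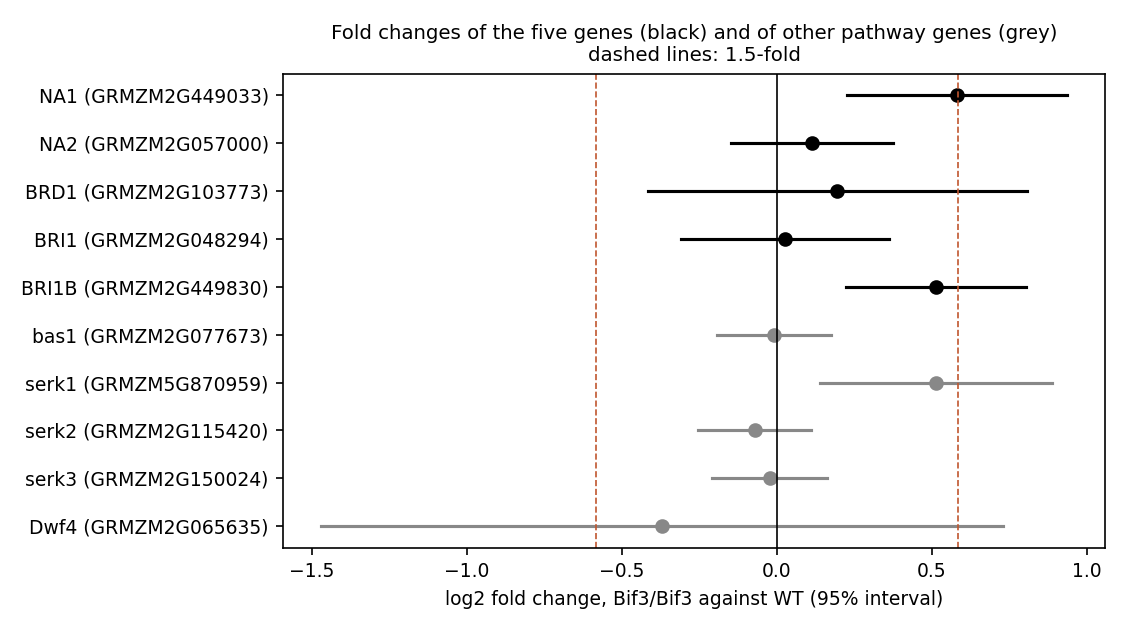
Log2 fold change of *Bif3/Bif3* against wild-type (horizontal axis) with its 95% interval for the 5 genes (black) and the 5 other pathway genes with counts (grey); the dashed lines mark 1.5-fold. The intervals of *NA1*, *BRI1B* and *serk1* lie above 0 before adjustment for the number of genes, and that of *Dwf4* is the widest.

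A further 11 genes carry brassinosteroid-related annotations in the study's own list of differentially expressed genes. They were listed because they changed in these pools and were picked here after their values were seen, so their direction is no evidence about the pathway, and they are described without weight. All 11 had every *Bif3/Bif3* pool above every wild-type pool, and 7 met the 3 limits, with log2 fold changes of the 11 from 0.52 to 3.32. In synthesis, the gene annotated as *CPD* (*GRMZM2G162737*), a P450 of the middle of the pathway, had 4.34, 5.35 and 5.09 CPM in wild-type and 10.5, 10.5, 8.55 and 8.07 CPM in *Bif3/Bif3* (log2 fold change 0.93). *GRMZM2G032896*, close to Arabidopsis CYP90D1, had 5, 7 and 9 counts in wild-type against 27, 65, 60 and 121 in *Bif3/Bif3*. Replicate 4 was the highest for *GRMZM2G032896*, and replicates 1 and 2 the highest for *GRMZM2G162737*.

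Both genes annotated as the inactivating P450 CYP734A1 were in that list as well. *GRMZM2G138750* had 13.4, 7.26 and 9.89 CPM in wild-type and 21.9, 22.8, 24.2 and 36.6 CPM in *Bif3/Bif3* (log2 fold change 1.38, SE 0.22). *GRMZM2G045319* had a log2 fold change of 2.25 at lower counts, 17 to 40 in wild-type and 54 to 189 in *Bif3/Bif3*, and was short of the limits without wild-type replicate 3, with an adjusted p of 0.101 in edgeR's test. Genes annotated for synthesis and for breakdown were thus both among those listed as higher.

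Among receptor-side genes, the list held *GRMZM2G349665* and *GRMZM2G145720*, annotated as *BAK1* although their closest Arabidopsis names are NIK1 and NIK2, with log2 fold changes of 0.54 and 0.52. *GRMZM2G054634*, annotated as *BSK2*, a kinase that the receptor phosphorylates, had 187, 178 and 155 CPM in wild-type and 290, 295, 233 and 233 CPM in *Bif3/Bif3* (log2 fold change 0.60). It was under 1.5-fold when wild-type replicate 3 (0.52) or *Bif3/Bif3* replicates 1 (0.57) or 2 (0.54) were left out. Of the transcription factor genes, *BZR7* (*AC194970.5_FG002*) had a log2 fold change of 1.24 and *BZR2* (*GRMZM6G287292*) one of 0.54. For the genes annotated as EXORDIUM, a protein of brassinosteroid-promoted growth in Arabidopsis, the log2 fold changes were 2.16 (*GRMZM2G090226*) and 0.52 (*GRMZM2G448883*). The smaller changes in this group, between 0.52 and 0.54, were in the range of *NA1* and *BRI1B* and under 1.5-fold.

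The genes whose log2 CPM followed each of the 5 most closely over the 7 pools were sought among 19706 genes with a mean of at least 1 on the log2 CPM scale, as a description. The pools differ in genotype and in depth, and among so many genes high values are common. For *NA1* the closest was *pan1* (*GRMZM5G836190*), a receptor-like protein of asymmetric division in the maize leaf epidermis, with a Pearson coefficient of 0.997, followed by *PP2C3* (*GRMZM2G059453*) and *GRMZM2G342738*, both at 0.995. The closest were *GRMZM2G088064* for *NA2* (0.997), *GRMZM2G057508* for *BRD1* (0.971), *GRMZM2G110201* for *BRI1* (0.986) and *GRMZM2G444533* for *BRI1B* (0.984). None of the 3 closest genes of any of the 5 was itself one of the 5. With 3 kept of 19706 genes, this says little of how the 5 vary together. Among the 5 genes the coefficients ran from -0.10 (*NA1* and *NA2*) to 0.74 (*NA1* and *BRI1B*).

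**Figure D4:**
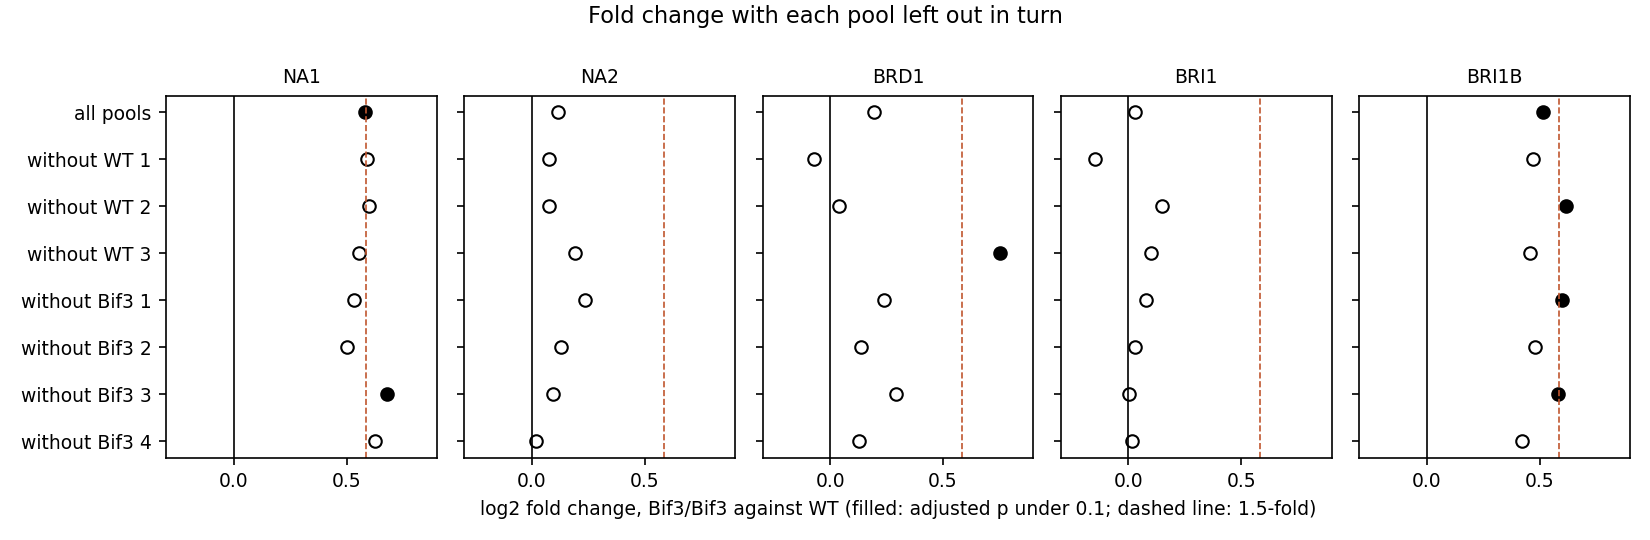
Log2 fold change (horizontal axis) of each of the 5 genes with all pools (top) and with each pool left out, filled where the adjusted p was under 0.1 and with a dashed line at 1.5-fold. *NA1* and *BRI1B* stay between 0.42 and 0.68 but lose or gain the call, and *BRD1* runs from -0.07 to 0.75 through wild-type replicates 1 and 3.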

How the data were processed

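RNA-seq counts of 7 pools of ear primordia were used. Stranded mRNA libraries were made. In the paper's methods, the authors used Trimmomatic for trimming, HISAT for alignment to B73 v3 and HTSeq-count for counting. The submitters' processing notes instead name TopHat2 2.1.1 and Cuffdiff. The deposited values are raw read counts per gene. Whether counting used strand is not given in the sources used here, so overlapping genes are uncertain.

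Tests were run with edgeR 4.0.16 under R 4.3.3 (quasi-likelihood test in the form of earlier versions, TMM scaling, no covariate). Genes with fewer than 2 counts over all pools were left out. A gene without counts cannot be tested, and the study's own adjusted p-values imply that such genes were not in its fit. Standard errors were derived from the F statistic. Detection limits and counting errors cover counting error only, since reads are not independent molecules. Between 34.7% and 63.6% of genes with enough counts differed between any pair of pools by more than counting error, so no pair of pools was counted as 1 sample. The fit was tested on simulated data.

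Alternatives were all genes of the table, the removal of genes short of 10 counts in 3 pools, DESeq2's size factors, library size alone, edgeR's current fit, DESeq2 1.42.0, limma-voom (limma 3.58.1) with sample quality weights, a block for the replicate number, the omission of each pool in turn, a stricter adjusted p of 0.05 and no fold limit. The fit on genes with at least 1 count was added after seeing the data.

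The members and lists were chosen with earlier results of these data known. The genes named are the 5 members, *ZmWUS1*, the pathway genes matched by symbol in a RefSeq gene table (assembly NAM-5.0, in which 19075 of the identifiers and 4 of the 5 genes were found) and the genes most alike over the pools. The genes annotated in the study's list were added later. That list's statistics (fold changes, F, p-values) gave none of the values for genes printed here. Its adjusted p-values were used in choosing which genes to fit. Descriptions were not in the gene table, so few pathway genes could be matched. Sequences and genome positions of build v3 were not used here, so no sequence is shown. Transcript levels were not compared between genes, and the ratio of the receptor genes compares counts only.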

Additional observations from a re-analysis of the deposited data

Results flagged for a closer look

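Among the 22 genes examined for a *Bif3/Bif3* pool far from the other 3, 2 had such a pool, and chance alone gives about 1 in 20. *ZmWUS1* had 12.8 CPM in *Bif3/Bif3* replicate 4, against 3.82 to 5.13 CPM in the other mutant pools. *GRMZM2G138750*, annotated as CYP734A1, had 36.6 CPM in the same pool, against 21.9 to 24.2 CPM in the other mutant pools. None of the 5 brassinosteroid genes had a mutant pool this far apart. Wild-type, with 3 pools, was not examined in this way.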

How the results depend on the processing

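The fits were repeated under 18 alternatives. *NA2* and *BRI1* were not past the limits in any of them, and the log2 fold change of *BRI1* was -0.04 with limma-voom. *NA1* met all 3 limits with the filter on low counts (log2 fold change 0.589), with library size alone (0.618), with limma-voom (0.651) and without *Bif3/Bif3* replicate 3, so that 1 of the 5 genes was past the limits in each. Over all genes, more were past the limits as higher in each of these settings as well. In the same order they were 1446 of 26255, 1513 of 40650, 2017 of 26255 and 1817 of 40024, against 1380 of 40650 in the main fit. Over the fits that left out a pool, the log2 fold change was 0.502 to 0.678 for *NA1*, 0.0183 to 0.233 for *NA2*, -0.0727 to 0.752 for *BRD1*, -0.150 to 0.150 for *BRI1* and 0.421 to 0.619 for *BRI1B*, 0 or 1 of the 5 genes were past the limits, and 0 or 1 of the other pathway genes. Without a limit on fold change, 2 were past, *NA1* (0.581) and *BRI1B* (0.515). When every row of the table was fitted, the adjusted p of *NA1* was 0.140 and that of *BRI1B* 0.0686. Over all 18 alternatives the adjusted p ran from 0.0129 to 0.238 for *NA1*, 0.0108 to 0.214 for *BRI1B* and 0.0878 to 1 for *BRD1*. For *serk1* it ran from 0.0631 to 0.316.

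Over all genes, 1380 were higher and 243 lower. These numbers were 891 and 137 at an adjusted p under 0.05, 670 lower without a fold limit, and 687 to 1817 higher and 114 to 327 lower when a pool was left out, with 687 and 137 when wild-type replicate 3 was omitted, 713 and 114 when *Bif3/Bif3* replicate 2 was, and 142 lower without *Bif3/Bif3* replicate 1. The mean CPM of the 5 genes stayed within their spread under the alternatives run on them. With all pools and a pseudocount of 1, the ratio of the receptor genes was still not past 0.05 in the exact two-sided permutation test (p = 0.114). The ratio's difference was 0.313 to 0.616 when a pool was left out. With a pool fewer that test cannot reach 0.05, so it cannot tell whether the ratio's result holds there. Without wild-type replicate 1, or without *Bif3/Bif3* replicate 3, the ratios of the genotypes no longer overlapped. They still overlapped when any other pool was left out.

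With the replicate number as a block, 1994 genes were higher and 394 lower, of 40650. *NA1* then met all 3 limits (log2 fold change 0.606, adjusted p = 0.0231 from edgeR's test), which makes 1 of the 5 genes. The labels say nothing of shared days or plots. The deviations of same-numbered pools correlated across genes at -0.003, 0.508 and 0.266, and not every pool matched its own number best. Whether same-numbered pools share a batch is not known and was not tested. The cause of these differences between settings was not tested. Genes at the level of *Dwf4* are limited by their counts.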
